A study of Mus musculus with 8 samples.

Results

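Lin28a, Lin28b, Trim71, Hmga1, Hmga2, Igf2bp1, Igf2bp2 and Igf2bp3 are genes of the Lin28 and let-7 axis. The set is often called oncofetal because many of its members are active in embryonic cells, low in most adult tissues and active again in many tumours. Every probe set whose 1 annotated gene symbol was among these 8 names was taken as a member, whatever its signal. The rule found 19 probe sets for 6 of the 8 genes, out of 18193 genes with a probe set of their own. Hmga2 had 4 probe sets, Igf2bp1 had 4 and Igf2bp3 had 6, Lin28a and Trim71 had 2 each and Lin28b had 1, while Hmga1 and Igf2bp2 had none under this annotation and were not analysed here. The arrays come from a study of engineered heart tissue made from parthenogenetic cells, in which total RNA of mouse cultures was labelled with biotin and hybridised to 1-colour Affymetrix arrays. EB_PSC (2 arrays) are embryoid bodies, aggregates in which parthenogenetic stem cells of the strain C57BL/6 were left to differentiate over 15 days. PSC (3 arrays) are the undifferentiated parthenogenetic stem cells, also C57BL/6. They were isolated on day 6 from blastocysts that grew out of oocytes activated with strontium chloride and so hold maternal genomes alone. ESC (3 arrays) come from the embryonic stem cell line R1, cultured with leukemia inhibitory factor over a MEF layer (feeder fibroblasts from mouse embryos). Their strain is not in the labels, and ESC stand here for 1 line. Between PSC and ESC the origin of the genome, the line, the strain and the culture cannot be told apart. Between EB_PSC and ESC these and differentiation cannot be told apart. The sample titles do not say whether the EB_PSC arrays come from the same line or culture as the PSC arrays.

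Lin28a and Lin28b encode RNA-binding proteins that bind the precursor of the microRNA let-7 and block its maturation, in the nucleus or in the cytoplasm. Let-7 in turn represses the mRNAs of Lin28, of the ubiquitin ligase and mRNA repressor Trim71, of the chromatin architectural factors Hmga1 and Hmga2, and of the Igf2bp proteins, which bind and stabilise mRNAs. Pluripotent cells are known for high Lin28 and little mature let-7, and differentiation is known to bring let-7 up. Let-7 itself was not measured on these arrays.

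The sequences that tie these genes together are the let-7 seed, through which the microRNA pairs with its target mRNAs, and the GGAG motif in the precursor's loop, which the zinc knuckles of Lin28 are known to bind. In the RefSeq miRNA table (build GRCm38.p6), 11 named mouse mature miRNAs from 13 loci shared the seed GAGGUAG at bases 2 to 8, out of 1738 mature entries. A few members of that group are shown here 5′ to 3′ with the seed in capitals, to let the constant seed be seen beside the variable rest.
let-7a-5p (chr13:48538239-48538260, minus strand): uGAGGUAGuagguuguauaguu
let-7d-5p (chr13:48536078-48536099, minus strand): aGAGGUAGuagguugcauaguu
let-7g-5p (chr9:106178846-106178867, plus strand): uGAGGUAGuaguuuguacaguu
miR-98-5p (chrX:151913229-151913250, plus strand): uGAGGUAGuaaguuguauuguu

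Of the 14 hairpins that hold such a mature sequence, 12 had both arms placed, and in 9 of these the loop between the arms held GGAG. The motif, searched on the strand of the hairpin, is in capitals in the first pair shown here. The loops of let-7b, let-7c-2 and miR-98 did not hold these letters, and let-7b is shown for comparison. Anywhere in the hairpin, GGAG was found in 11 of the 14 family hairpins and in 447 of all 1005 mouse hairpins of the table (44.5%).
let-7g hairpin (chr9:106178840-106178927, plus strand): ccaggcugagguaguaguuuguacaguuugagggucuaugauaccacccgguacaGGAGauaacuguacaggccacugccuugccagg
let-7i hairpin (chr10:122985640-122985724, minus strand): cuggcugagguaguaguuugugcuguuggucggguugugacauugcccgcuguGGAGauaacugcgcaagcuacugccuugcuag
let-7b hairpin (chr15:85707319-85707403, plus strand): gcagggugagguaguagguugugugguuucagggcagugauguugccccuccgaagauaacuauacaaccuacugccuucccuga

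All values below are deposited log2 signals (RMA, a background-corrected and normalized array summary) of single probe sets, and each difference is the first named group minus the second, in log2 units ± its standard error. Differences were tested with limma over 45037 probe sets and called at a Benjamini-Hochberg adjusted p below 0.05. A mean below 5.44, the median of all values, is called dim, and no fold is given against it. The 3 comparisons share arrays with one another, so they are not independent. The labels do not say that the arrays of a group are separate cultures, so the p-values measure the spread between these arrays, which may be technical. Arrays of one group correlated with each other at r of 0.991 to 0.995, EB_PSC with PSC at 0.934 to 0.943, and PSC with ESC at 0.978 to 0.986. The 3′ minus 5′ difference of the Gapdh control, a sign of RNA integrity, lay between -0.09 and -0.06 in EB_PSC, between -0.06 and 0.00 in PSC and between 0.08 and 0.17 in ESC. That of Actb was 1.09 to 1.17 in EB_PSC, 1.04 to 1.54 in PSC and 0.69 to 1.13 in ESC, where all 3 groups overlapped. The part of RNA integrity in the results was not tested.

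In embryoid bodies the axis did not move as a block. Hmga2 was about 40-fold higher than in the parthenogenetic stem cells, and Igf2bp3 rose on all 6 of its probe sets, by 1.51-fold to 2.42-fold. Lin28a, Trim71 and Igf2bp1 each fell on some of their probe sets, and Lin28b was dim in every group. Of the 19 member probe sets, 10 were higher and 4 lower in EB_PSC than in PSC and 5 did not pass, in a comparison where 34.5% of all probe sets were called, 15.6% higher and 18.9% lower. The median difference was 0.60 over the member probe sets and -0.08 over all probe sets. All 10 higher probe sets belong to Hmga2 (4) and Igf2bp3 (6), so these counts and the median lean on 2 genes. By the brightest probe set of each of the 6 genes, 2 were higher, 1 lower and 3 not called. Of all genes 18.1% were higher and 23.7% lower. The median by gene was -0.06 over the members and -0.09 over all genes. The arrays of the groups did not overlap for 11 members that were higher and 6 that were lower, and for 56.6% of all probe sets, 22.8% higher and 33.8% lower. In bulk RNA, fewer cells that express a gene and less RNA per cell cannot be told apart.

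**Figure D1:**
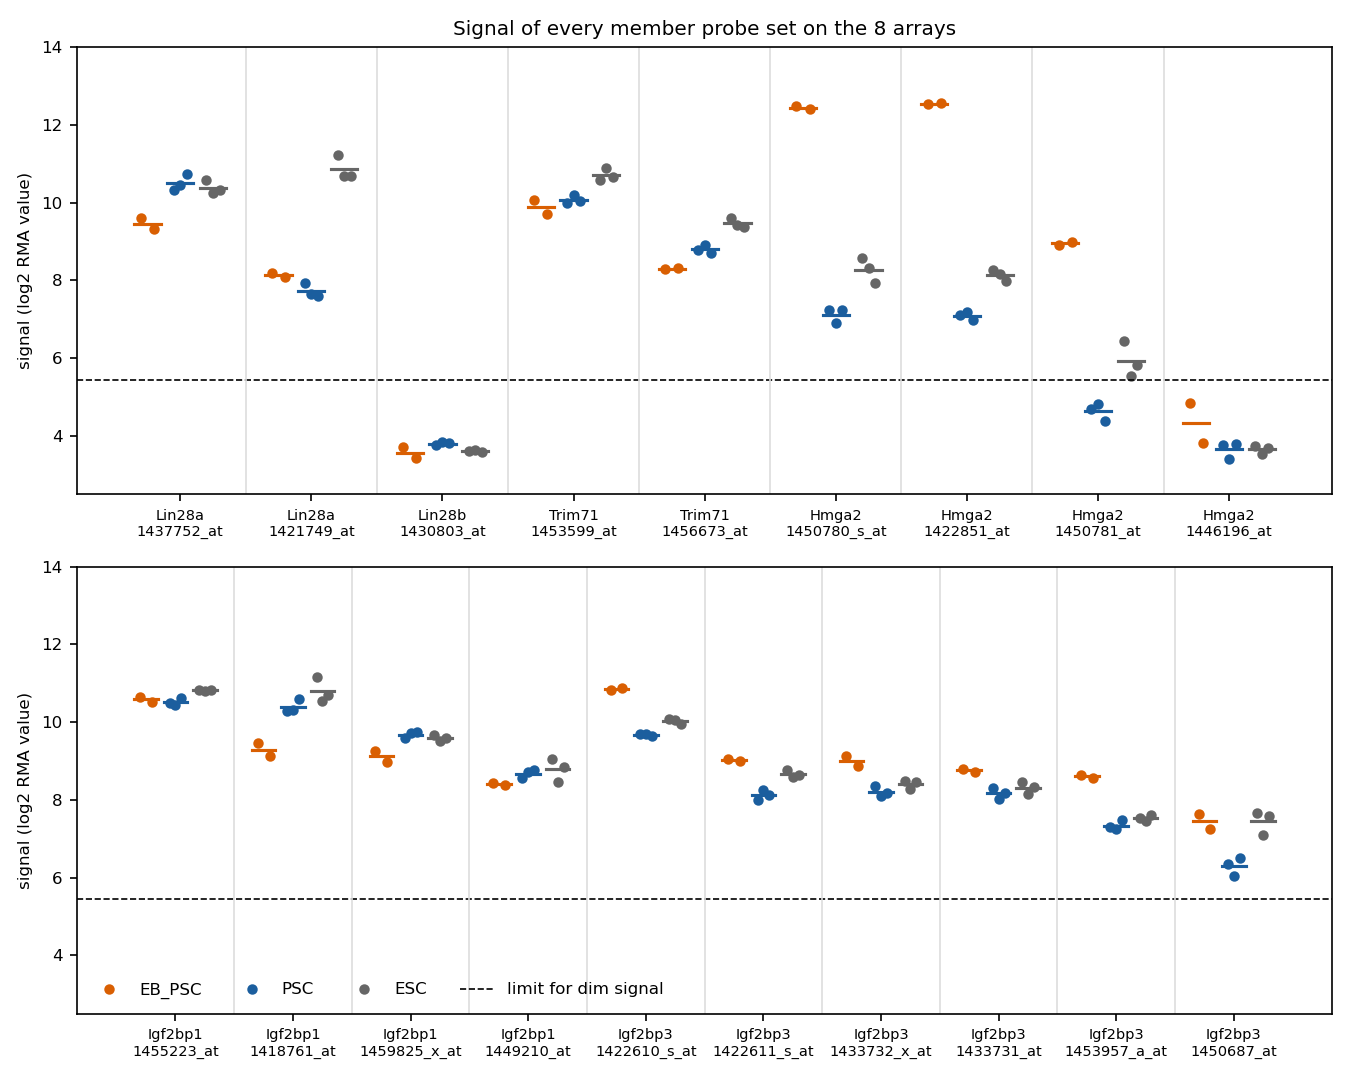
Log2 signal of the 19 member probe sets on every array (vertical axes). Points are arrays, short bars are group means, and the dashed line is the limit of 5.44 for dim signal. Hmga2 in EB_PSC stands near 12.5 on its 2 brightest probe sets, against 6.90 to 7.23 in PSC, while Lin28b lies below the limit on all arrays.

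Hmga2 binds AT-rich DNA and shapes chromatin in growing and embryonic tissue. Its brightest probe set, 1450780_s_at, read 12.48 and 12.40 in EB_PSC, against 7.23, 6.90 and 7.22 in PSC. Every embryoid body array therefore lay more than 5 log2 units above every PSC array. The difference was 5.33 ± 0.18, a 40.1-fold rise (adjusted p = 3.99e-10), which ranked 52nd from the top among the 45037 probe sets. The probe set 1422851_at told the same, with 12.52 and 12.55 in EB_PSC and 7.11, 7.19 and 6.97 in PSC, a 43.6-fold rise (difference 5.45 ± 0.13, adjusted p = 3.85e-11). On 1450781_at the signals were 8.92 and 8.98 in EB_PSC and 4.70, 4.81 and 4.39 in PSC, where they were dim. There the difference of 4.32 ± 0.22 is a lower bound (adjusted p = 1.46e-08). The fourth probe set, 1446196_at, was dim in both groups, at 4.84 and 3.81 in EB_PSC and 3.75, 3.42 and 3.78 in PSC. It passed narrowly (adjusted p = 0.0433). The call was lost at 6 other settings, a fit of these groups alone (adjusted p = 0.0684) and the removal of EB_PSC replicate 1, any PSC replicate or ESC replicate 3, and without EB_PSC replicate 1 the difference was 0.16 (adjusted p = 0.607). The processed pseudogene Hmga2-ps1, which can share sequence with Hmga2, was dim on every array (4.11 to 4.68).

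Igf2bp3, an RNA-binding protein of embryos and tumours, rose on each of its 6 probe sets, by 0.60 to 1.27. On 1422610_s_at, its brightest, EB_PSC read 10.83 and 10.87, against 9.68, 9.70 and 9.65 in PSC. The groups were tight and far apart, with a 2.25-fold rise (difference 1.17 ± 0.12, adjusted p = 6.02e-06). The widest rise was on 1453957_a_at, where EB_PSC read 8.65 and 8.57 and PSC 7.29, 7.24 and 7.47, which is 2.42-fold (difference 1.27 ± 0.13, adjusted p = 6.19e-06). The narrowest was on 1433731_at, with 8.80 and 8.72 in EB_PSC and 8.31, 8.01 and 8.17 in PSC (difference 0.60 ± 0.14, 1.51-fold, adjusted p = 0.00476). On all 6 probe sets the EB_PSC arrays lay above all PSC arrays.

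Igf2bp1, which binds Igf2, Myc and Actb mRNAs among others, gave a split answer. Its brightest probe set, 1455223_at, overlapped between the groups, with 10.65 and 10.53 in EB_PSC and 10.50, 10.43 and 10.62 in PSC (difference 0.07 ± 0.12, adjusted p = 0.698, 95% interval -0.19 to 0.34). Its probe set 1418761_at fell 2.16-fold, with 9.45 and 9.12 in EB_PSC against 10.28, 10.32 and 10.59 in PSC (difference -1.11 ± 0.19, adjusted p = 0.000485). On that probe set every embryoid body array lay below every PSC array. The probe set 1459825_x_at also fell, with 9.25 and 8.98 in EB_PSC against 9.59, 9.71 and 9.73 in PSC (difference -0.56 ± 0.13, adjusted p = 0.00452). That call was lost without EB_PSC replicate 2, where the difference was -0.42 (adjusted p = 0.0646). On 1449210_at the difference was -0.27 ± 0.17 (adjusted p = 0.248), with 8.44 and 8.37 in EB_PSC and 8.55 to 8.77 in PSC.

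Lin28a, the form of Lin28 that marks pluripotent cells, fell on its brighter probe set. 1437752_at read 9.59 and 9.32 in EB_PSC and 10.32, 10.46 and 10.73 in PSC, without overlap. The fall was 2.06-fold (difference -1.04 ± 0.16, adjusted p = 0.000216), and the EB_PSC level remained well above the limit for dim signal. The other probe set, 1421749_at, went the other way, with 8.18 and 8.09 in EB_PSC and 7.94, 7.64 and 7.59 in PSC. Its difference of 0.41 ± 0.17 did not pass (adjusted p = 0.0944). It passed without ESC replicate 1 (adjusted p = 0.037), in a fit of these groups alone (adjusted p = 0.0476) and, at 0.58, after cyclic loess scaling (adjusted p = 0.0207). Lin28b, its paralogue, better known from other tissues and tumours, was dim everywhere, at 3.71 and 3.43 in EB_PSC and 3.76, 3.83 and 3.81 in PSC, and was not called (adjusted p = 0.194). It was read from 1 probe set, 1430803_at, so the dim signal does not show that the transcript was absent. Hmga2 1446196_at was likewise dim in EB_PSC, where other probe sets of Hmga2 were bright.

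Trim71, known as Lin-41 in worms, where it was found as a let-7 target, moved little. On 1453599_at the groups overlapped, with 10.06 and 9.70 in EB_PSC and 10.00, 10.19 and 10.03 in PSC (difference -0.20 ± 0.15, adjusted p = 0.349). On 1456673_at it fell 1.42-fold, with 8.29 and 8.31 in EB_PSC against 8.79, 8.92 and 8.71 in PSC (difference -0.51 ± 0.13, adjusted p = 0.00772). After cyclic loess scaling that difference was -0.33 and no longer passed (adjusted p = 0.0614). On day 15 both probe sets of Trim71 still read above 8 in the embryoid bodies.

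**Figure D2:**
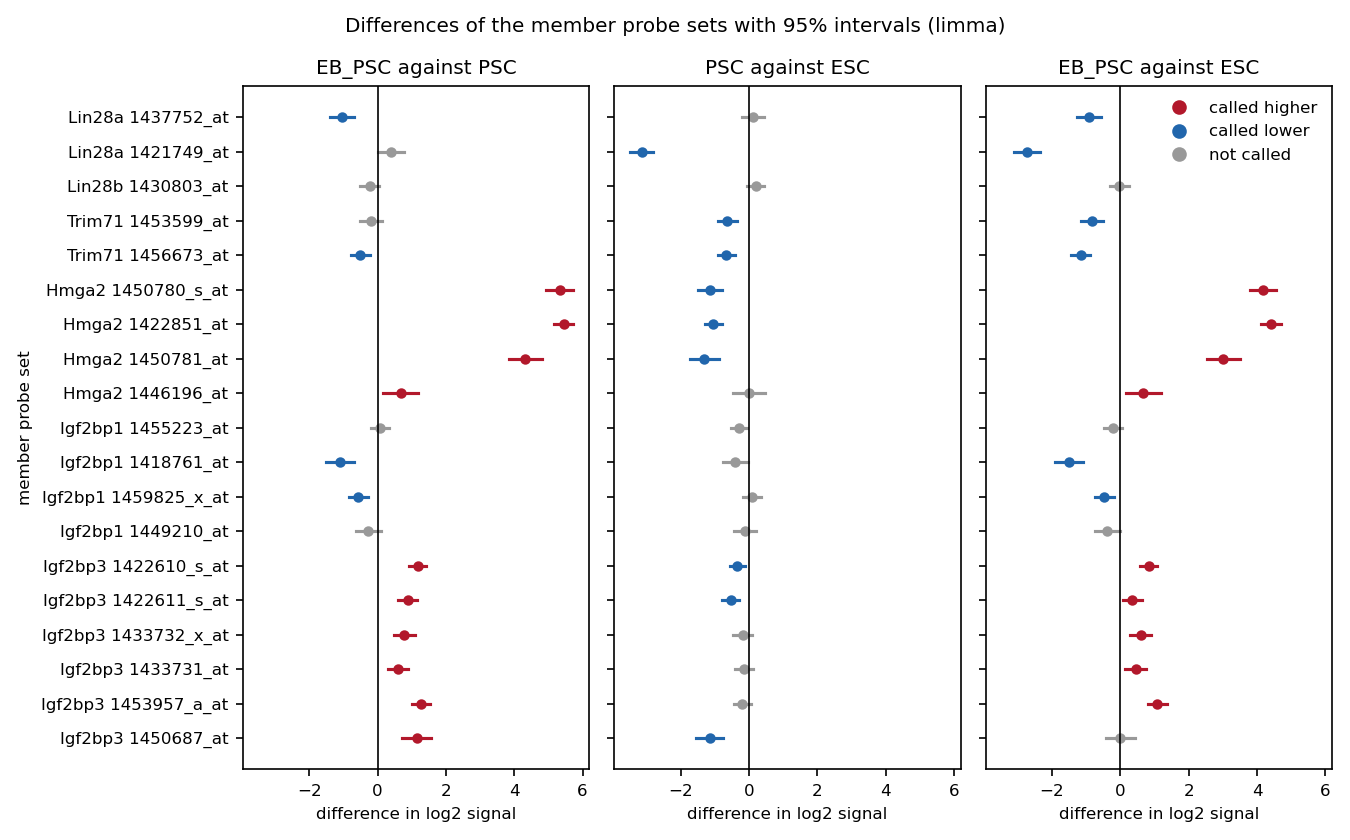
Difference of each member probe set in log2 signal (horizontal axes) in the 3 comparisons, with 95% intervals from limma. Points are coloured by their call. Hmga2 and Igf2bp3 lie to the right of 0 in EB_PSC against PSC, and in PSC against ESC no member was called higher.

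PSC set against ESC asks how like the parthenogenetic stem cells were to a conventional line. Where members differed, they were lower in PSC. Lin28a, Trim71, Hmga2 and Igf2bp3 were lower in PSC on at least 1 probe set, and no probe set of Igf2bp1 or Lin28b passed. Of the 19 member probe sets, 0 were higher and 9 lower in PSC and 10 did not pass, where 15.6% of all probe sets were called, 7.07% higher and 8.55% lower. That background fell to 4395 and 4629 probe sets without PSC replicate 1 and without PSC replicate 2, against 7037 with every array, while the count of members called lower was 8 in both, against 9. At an unadjusted p below 0.05 no member was higher either, and no alternative run called one higher. The arrays did not overlap for 1 member that was higher (Lin28b, dim) and 10 that were lower in PSC, against 32.0% of all probe sets, 16.2% higher and 15.8% lower. The median difference was -0.34 over the members and 0.02 over all probe sets. By the brightest probe set of each of the 6 genes, 0 were higher, 3 lower and 3 not called. Of all genes 8.21% were higher and 10.5% lower. The median by gene was -0.32 over the members and 0.01 over all genes.

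Lin28a held the largest difference of all members and the sharpest conflict between probe sets. On 1421749_at PSC read 7.94, 7.64 and 7.59 and ESC 11.21, 10.69 and 10.67, an 8.79-fold lower signal in PSC (difference -3.14 ± 0.16, adjusted p = 1.25e-07). It was the 20th lowest difference of the 45037. On 1437752_at the same arrays overlapped, with 10.32, 10.46 and 10.73 in PSC and 10.58, 10.25 and 10.33 in ESC (difference 0.12 ± 0.14, adjusted p = 0.665, 95% interval -0.19 to 0.43). So 1 probe set of Lin28a put PSC far below ESC and the other did not separate them. Lin28b was dim, at 3.76 to 3.83 in PSC and 3.59 to 3.62 in ESC (adjusted p = 0.31).

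Taking 1421749_at minus 1437752_at within each array shows how the 2 probe sets of Lin28a parted. The offset itself has no meaning across probe sets, but its change between groups does. It was -1.42 and -1.24 in EB_PSC, -2.38, -2.82 and -3.14 in PSC, and 0.63, 0.45 and 0.34 in ESC. The offsets of the 3 groups did not overlap. Between PSC and ESC the offset differed by -3.25, with an exact two-sided permutation p = 0.1, the smallest that 3 against 3 arrays allow, and an adjusted p of 0.205 over 39 such tests, in which each further probe set of a member gene was set against 1 probe set of that gene in each of the 3 comparisons. Among 4955 genes with 2 or more probe sets above the dim limit, only 4 had a wider gap between their probe sets' differences in this comparison. Lin28a was thus the fifth widest, where the median gap was 0.369. The gaps were 0.03 for Trim71, 0.11 for Hmga2, 0.49 for Igf2bp1 and 1.00 for Igf2bp3. In EB_PSC against PSC the gap of Lin28a was 1.45, rank 467 of 5029. The position of the probe sets in the transcript was not given in the sources used here, and the cause of the gap was not tested.

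**Figure D3:**
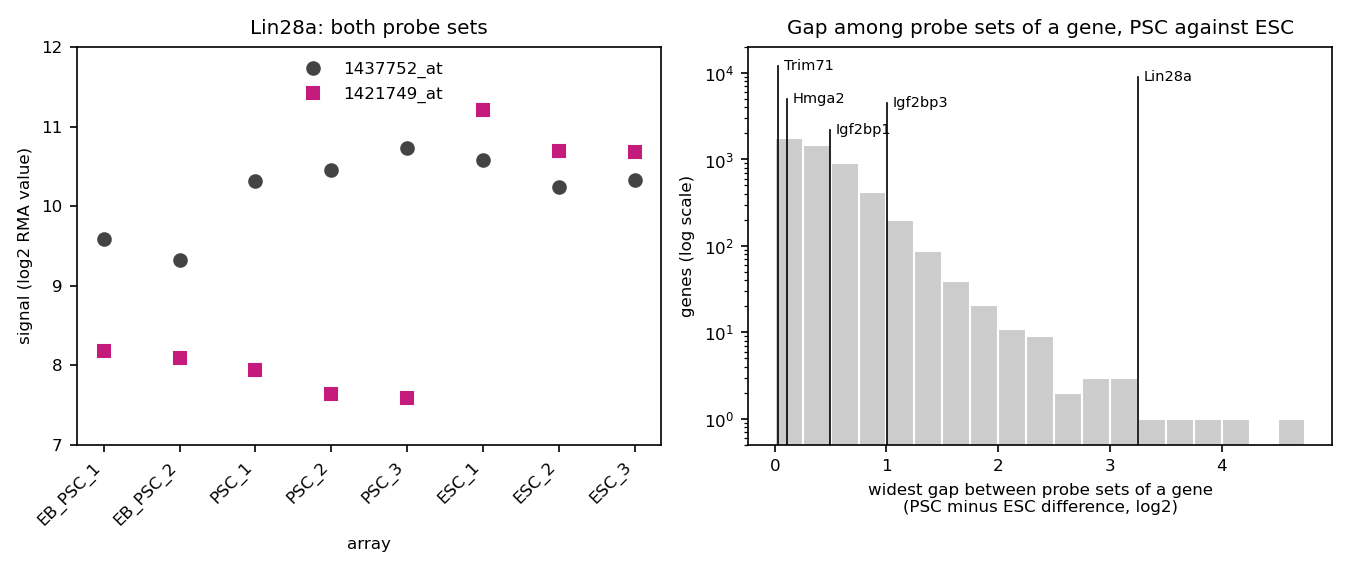
Left, log2 signal of both Lin28a probe sets on each array, where 1421749_at lies below 1437752_at on the EB_PSC and PSC arrays and above it on the ESC arrays. Right, the number of genes (log scale) by the widest gap between the PSC minus ESC differences of their probe sets, with a line at each member gene, Lin28a at 3.25.

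Trim71 was lower in PSC on both of its probe sets and by nearly the same amount. On 1453599_at PSC read 10.00, 10.19 and 10.03 and ESC 10.57, 10.89 and 10.65 (difference -0.63 ± 0.13, 1.55-fold lower, adjusted p = 0.00697). On 1456673_at PSC read 8.79, 8.92 and 8.71 and ESC 9.60, 9.42 and 9.37 (difference -0.66 ± 0.11, 1.58-fold lower, adjusted p = 0.00193). No PSC array reached the lowest ESC array on either.

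Hmga2 was lower in PSC on 3 of its 4 probe sets. On 1450780_s_at PSC read 7.23, 6.90 and 7.22 and ESC 8.58, 8.31 and 7.92 (difference -1.15 ± 0.16, 2.22-fold lower, adjusted p = 0.000473). On 1422851_at PSC read 7.11, 7.19 and 6.97 and ESC 8.26, 8.16 and 7.98 (difference -1.04 ± 0.12, 2.06-fold lower, adjusted p = 0.000101). The groups did not overlap on either probe set. On 1450781_at PSC was dim, at 4.39 to 4.81, against 5.54 to 6.45 in ESC, so its difference of -1.30 ± 0.20 is bounded by the floor of the signal (adjusted p = 0.00081). The fourth probe set was dim in both groups and did not pass (adjusted p = 0.994).

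Igf2bp3 was lower in PSC on 3 of 6 probe sets. The clearest was 1450687_at, with 6.34, 6.04 and 6.51 in PSC and 7.66, 7.09 and 7.59 in ESC (difference -1.15 ± 0.18, 2.22-fold lower, adjusted p = 0.000903). On 1422611_s_at PSC read 8.00, 8.25 and 8.13 and ESC 8.77, 8.57 and 8.63 (difference -0.53 ± 0.12, adjusted p = 0.00743). The brightest probe set, 1422610_s_at, passed narrowly, with 9.68, 9.70 and 9.65 in PSC and 10.07, 10.05 and 9.95 in ESC (difference -0.34 ± 0.10, adjusted p = 0.0423). That call was lost without any 1 of the 3 PSC or 3 ESC arrays, at adjusted p between 0.0711 and 0.117, and after either rescaling of the arrays, at 0.139 and 0.183. The other 3 differed by -0.20 to -0.15 and did not pass. On these, 1453957_a_at read 7.29, 7.24 and 7.47 in PSC and 7.54, 7.44 and 7.61 in ESC, and 1433731_at read 8.31, 8.01 and 8.17 in PSC and 8.47, 8.14 and 8.33 in ESC. The last, 1433732_x_at, read 8.37, 8.11 and 8.17 in PSC and 8.48, 8.27 and 8.45 in ESC. The groups overlapped on all 3.

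Igf2bp1 differed by -0.40 to 0.09 on its 4 probe sets, none of them called (adjusted p 0.0885 to 0.701). On 1455223_at PSC read 10.50, 10.43 and 10.62 and ESC 10.83, 10.79 and 10.82, without overlap, and with array weights its difference of -0.30 passed (adjusted p = 0.0392). On 1418761_at PSC read 10.28, 10.32 and 10.59 and ESC 11.17, 10.53 and 10.69. The groups overlapped there, as they did on 1459825_x_at (9.59 to 9.73 in PSC and 9.51 to 9.66 in ESC) and on 1449210_at (8.55 to 8.77 in PSC and 8.46 to 9.06 in ESC).

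Set against ESC, embryoid bodies were high in Hmga2 and most Igf2bp3 probe sets and low in Lin28a and Trim71. ESC are not the cells from which these embryoid bodies came, so a difference here is not a change during differentiation alone. Hmga2 was 18.0-fold higher in EB_PSC than in ESC on 1450780_s_at and 21.2-fold higher on 1422851_at, and Lin28a and Trim71 were lower on every probe set. Of the 19 members, 9 were higher, 6 lower and 4 not called, where 35.9% of all probe sets were called, 16.4% higher and 19.5% lower. By the brightest probe set of each of the 6 genes, 2 were higher, 2 lower and 2 not called. Of all genes 18.6% were higher and 24.5% lower. The median by gene was -0.13 over the members and -0.07 over all genes. The arrays did not overlap for 9 members that were higher and 8 that were lower, against 55.1% of all probe sets, 23.8% higher and 31.3% lower. The members called higher numbered 5 without EB_PSC replicate 1.

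Hmga2 was higher in EB_PSC by 4.17 ± 0.18 on 1450780_s_at (adjusted p = 3.23e-09) and by 4.41 ± 0.13 on 1422851_at (adjusted p = 1.88e-10). On 1450781_at, where ESC was not dim, EB_PSC was 8.09-fold higher (difference 3.02 ± 0.22, adjusted p = 3.59e-07). The dim probe set 1446196_at passed (adjusted p = 0.0428). That call was lost at 10 other settings, which were both rescalings, a fit of these groups alone, and the removal of EB_PSC replicate 1 or any PSC or ESC replicate, at adjusted p between 0.0518 and 0.623, the last without EB_PSC replicate 1 (difference 0.15). Lin28a was 1.90-fold lower in EB_PSC on 1437752_at (difference -0.93 ± 0.16, adjusted p = 0.000478) and 6.63-fold lower on 1421749_at (difference -2.73 ± 0.17, adjusted p = 1.09e-07). On 1421749_at PSC already differed from ESC by -3.14 ± 0.16, and EB_PSC differed from PSC by 0.41 ± 0.17, which was not called. The low signal of that probe set in EB_PSC is therefore not a fall from PSC. Trim71 was 1.78-fold and 2.24-fold lower in EB_PSC on its probe sets 1453599_at and 1456673_at (adjusted p = 0.000703 and 1.22e-05). Its order of levels was thus ESC above PSC above EB_PSC on 1456673_at, while on 1453599_at EB_PSC and PSC did not differ beyond their spread.

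Igf2bp1 was 2.85-fold lower in EB_PSC than in ESC on 1418761_at (difference -1.51 ± 0.19, adjusted p = 3.53e-05). It was also lower on 1459825_x_at (difference -0.47 ± 0.13, adjusted p = 0.0124), a call lost without EB_PSC replicate 2 (adjusted p = 0.142) and after cyclic loess scaling, where the difference was -0.20 (adjusted p = 0.221). The remaining pair of its probe sets did not pass, 1455223_at at adjusted p = 0.186 and 1449210_at at 0.0988. Without ESC replicate 2 the difference of 1449210_at was -0.55 and passed (adjusted p = 0.00873). Igf2bp3 was higher on 5 of 6 probe sets, most on 1453957_a_at (2.11-fold, difference 1.08 ± 0.13, adjusted p = 2.2e-05) and on 1422610_s_at (1.78-fold, difference 0.83 ± 0.12, adjusted p = 9.4e-05). The calls of 1422611_s_at (0.35 ± 0.13, adjusted p = 0.0496) and 1433731_at (0.45 ± 0.14, adjusted p = 0.023) were narrow. The first was lost without EB_PSC replicate 1, EB_PSC replicate 2, ESC replicate 2, ESC replicate 3 or any PSC replicate, at adjusted p up to 0.184, and also in a fit of these groups alone (0.0675) and with a trended and robust prior (0.0587). The second was lost without EB_PSC replicate 1, EB_PSC replicate 2, ESC replicate 2 or ESC replicate 3, at adjusted p up to 0.118. The call of 1433732_x_at, which read 9.13 and 8.86 in EB_PSC (0.60 ± 0.14, adjusted p = 0.00443), was lost without EB_PSC replicate 1, at 0.063. On 1450687_at the groups overlapped, with 7.64 and 7.24 in EB_PSC and 7.66, 7.09 and 7.59 in ESC (difference 0.00 ± 0.20, adjusted p = 0.992). For Igf2bp3 the order EB_PSC above ESC above PSC thus held on 1422610_s_at and 1422611_s_at, with the narrow calls named above.

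The genes that make, trim or degrade let-7 were taken as a list of 24, all measured, each by its brightest probe set. They include the nuclear and cytoplasmic processing enzymes, the Argonautes, the uridylyl transferases that Lin28 recruits to the precursor, and the exonuclease Dis3l2. In EB_PSC against PSC 2 rose, 7 fell and 15 did not pass, where 41.8% of all genes were called (18.1% higher and 23.7% lower), and the median was -0.19 over the list and -0.09 over all genes. With the probe sets of each gene averaged, 4 rose and 11 fell. Prkra, a partner of Dicer, rose by 1.13 ± 0.13 (adjusted p = 1.67e-05) and Dgcr8, the partner of Drosha, by 0.39 ± 0.13 (adjusted p = 0.0356). The falls were led by Trim25, an RNA-binding ubiquitin ligase known to help Lin28a bring the uridylyl transferase to pre-let-7 (-2.10 ± 0.15, adjusted p = 2.71e-07). Xpo5, which exports pre-miRNAs, fell by 1.41 on the log2 scale (adjusted p = 5.22e-06) and Hnrnpa1, which binds the let-7 hairpin, by 0.97 (adjusted p = 7.82e-05).

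In PSC against ESC 3 genes of that list were higher and 0 lower, with 21 not passing, where 18.8% of all genes were called (8.21% higher and 10.5% lower). At other settings the count of higher genes was 5 and that of lower genes 1, as given in the closing section. Dicer1, which cuts pre-let-7 and is itself a let-7 target, averaged 9.75 in PSC and 8.58 in ESC (difference 1.17 ± 0.11, adjusted p = 2.17e-05). Tent2, an RNA nucleotidyl transferase, was higher by 0.43 ± 0.13 (adjusted p = 0.0424) and Hnrnpa1 by 0.39 ± 0.12 (adjusted p = 0.0398). In EB_PSC against ESC 4 were higher and 6 lower and 14 did not pass, where 43.1% of all genes were called (18.6% higher and 24.5% lower). Trim25 was again the lowest (-2.16 ± 0.15, adjusted p = 1.89e-07), followed by Xpo5 (-1.03 ± 0.14) and Ago2, the slicing Argonaute (-0.61 ± 0.15). Prkra (1.10 ± 0.13), Tent2 (0.63 ± 0.15) and Ago3 (0.63 ± 0.20) were the highest.

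Other mRNAs known as let-7 targets formed a list, of which 29 were measured and are reported here. In EB_PSC against PSC 14 rose, 7 fell and 8 did not pass, against 41.8% of all genes called (18.1% higher and 23.7% lower). The median was 0.39 over the list and -0.09 over all genes. The largest rises were those of Thbs1, an extracellular matrix glycoprotein, dim in PSC (at least 4.10, adjusted p = 5.31e-08), Ccnd2, a G1 cyclin (3.55 ± 0.15, adjusted p = 3.17e-09), and the homeobox factor Pbx3 (2.63 ± 0.16, adjusted p = 8.44e-08). The largest falls were those of the cell cycle phosphatase Cdc25a (-1.74 ± 0.20, adjusted p = 1.96e-05), the transcription factor Mycn (-1.72 ± 0.20, adjusted p = 2.46e-05) and the repressor Hic2 (-1.23 ± 0.14, adjusted p = 2.39e-05). The targets were thus called in both directions, with more rises than falls. The falls, 7 of 29, lay near the 23.7% of all genes that were lower.

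In PSC against ESC 5 targets were higher, 7 lower and 17 not called, against the 8.21% higher and 10.5% lower of all genes, with a list median of -0.14 and 0.01 over all genes. Myc averaged 6.04 in PSC and 8.41 in ESC (difference -2.38 ± 0.19, adjusted p = 9.57e-06). Ccnd2 (-1.19 ± 0.14, adjusted p = 0.000118) and the receptor Tgfbr1 (-1.01 ± 0.14, adjusted p = 0.000355) were lower as well. Higher were Dicer1, the receptor Igf1r (0.73 ± 0.13, adjusted p = 0.00197) and Hic2 (0.45 ± 0.13, adjusted p = 0.0311). In EB_PSC against ESC 10 were higher and 8 lower and 11 did not pass, against the 18.6% higher and 24.5% lower of all genes, with a list median of 0.04 and -0.07 over all genes. Highest were Thbs1 (at least 3.96), Ccnd2 (2.36 ± 0.15) and Pbx3 (2.23 ± 0.16). Lowest were Mycn (-2.00 ± 0.20), Sall4, a pluripotency factor (-1.35 ± 0.12), and Cdc25a (-1.29 ± 0.20). Each of these genes passed at an adjusted p of 0.000191 or less.

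**Figure D4:**
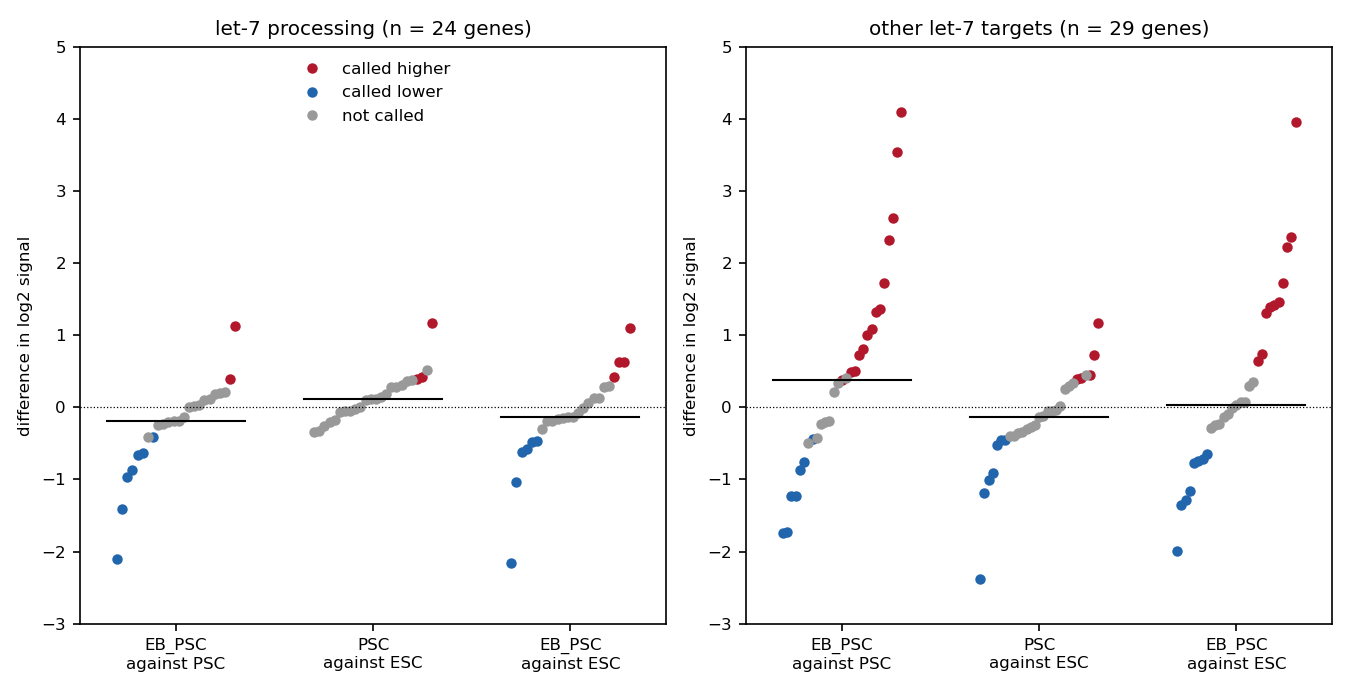
Difference in log2 signal (vertical axes) of 24 let-7 processing genes and 29 other let-7 targets in the 3 comparisons. Each point is a gene coloured by its call, ordered by size, and horizontal lines are list medians. The targets' median is 0.39 in EB_PSC against PSC and -0.14 in PSC against ESC.

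Markers of the cell types these cultures could hold moved on the same arrays, where 18.1% of all genes were called higher and 23.7% lower in EB_PSC against PSC. Of 10 markers of undifferentiated stem cells, 10 fell and 0 rose in EB_PSC against PSC, and their mean level was 9.50 to 9.63 in EB_PSC and 11.6 to 11.8 in PSC. They were thus lower in the embryoid bodies but far above the dim limit. Of 14 fibroblast markers 11 rose and 1 fell, and their mean level was 8.98 to 9.23 in EB_PSC and 6.32 to 6.48 in PSC, with 5 of them dim in PSC. Of 10 cardiomyocyte markers 8 rose (mean 7.98 to 8.70 in EB_PSC and 4.96 to 5.04 in PSC), and of 9 visceral endoderm markers 5 rose and 1 fell (mean 7.11 to 7.41 in EB_PSC and 5.40 to 5.50 in PSC). Of 9 proliferation markers 6 fell (mean 11.0 to 11.1 in EB_PSC and 11.6 to 11.7 in PSC), and of 7 neural markers 2 rose and 3 fell. The part of these cell types in the changes of Hmga2, Igf2bp3 and Lin28a was not tested.

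The fibroblast markers also differed between PSC and ESC. The ESC grew on feeder fibroblasts, and whether the PSC did is not stated here. In PSC 7 of 14 were lower and 0 higher, against 10.5% lower and 8.21% higher of all genes, with a mean level of 6.32 to 6.48 in PSC and 6.91 to 7.27 in ESC, where 3 were dim. Col3a1, a fibrillar collagen, averaged 6.68 in PSC and 8.10 in ESC, and Pdgfrb was dim in PSC at 3.96, against 6.01 in ESC. Hmga2, which fibroblasts of embryos also express, was lower in PSC on the same arrays, and the part of feeder cells in its difference was not tested. Of 10 stem cell markers 1 was higher and 2 were lower in PSC, and 7 did not pass.

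**Figure D5:**
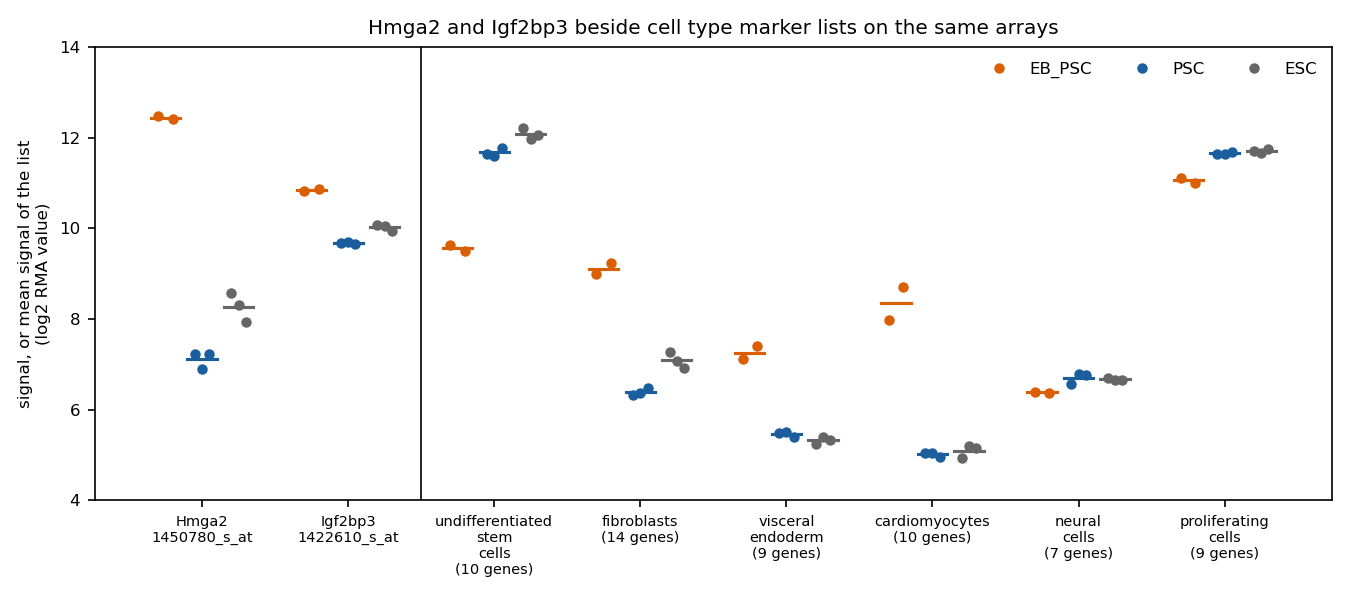
Log2 signal of Hmga2 and Igf2bp3 (left of the line) and mean log2 signal of 6 marker lists (right of it) on each array. Bars are group means. Fibroblast, visceral endoderm and cardiomyocyte lists are higher in EB_PSC than in PSC, as Hmga2 is, and the stem cell list is lower.

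For each member but Lin28b the genes whose brightest probe set followed its brightest probe set most closely were sought among 3616 genes with an SD of at least 0.5 over the 8 arrays. The arrays fall into 3 groups, so that r mostly describes group levels, and it is given with no test. Hmga2 ran closest to Timp3 (r = 0.997), an inhibitor of metalloproteinases, and to the collagen Col1a2 (r = 0.997), and 1000 of the 3616 genes had r above 0.9 with it. Igf2bp3 ran closest to Timp2 (r = 0.996) and Perp (r = 0.995), with 887 genes above 0.9. Lin28a ran closest to Ube2o (r = 0.990) and Gtpbp6 (r = 0.989), with 708 genes above 0.9. Trim71 ran with Cenps (r = 0.975) and Tipin (r = 0.959), with 69 genes above 0.9, and Igf2bp1 with Lin9 (r = 0.976) and Ric8b (r = 0.966), with 39. No likeness is given for Lin28b, which was dim on every array.

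Hmga2 and Igf2bp3 rose together in the embryoid bodies, and their RefSeq promoters, from 250 bases before to 50 after the start of the gene (build GRCm38.p6), are shown with the motifs found. Both strands were searched for CACGTG (the E-box that Myc factors bind), GGGCGG (the GC box of Sp factors), TATAAA and the octamer ATTTGCAT. The Igf2bp3 promoter held the E-box at 2 places and no GC box, and the Hmga2 promoter held the GC box once, read on the other strand, and no E-box, both in capitals.
Igf2bp3 promoter (chr6:49214905-49215204, minus strand): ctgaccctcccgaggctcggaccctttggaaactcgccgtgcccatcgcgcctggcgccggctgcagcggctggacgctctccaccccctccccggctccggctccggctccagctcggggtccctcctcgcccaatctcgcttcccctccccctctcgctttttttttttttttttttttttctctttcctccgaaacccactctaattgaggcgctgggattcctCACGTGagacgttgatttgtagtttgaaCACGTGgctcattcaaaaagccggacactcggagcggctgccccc
Hmga2 promoter (chr10:120476420-120476719, minus strand): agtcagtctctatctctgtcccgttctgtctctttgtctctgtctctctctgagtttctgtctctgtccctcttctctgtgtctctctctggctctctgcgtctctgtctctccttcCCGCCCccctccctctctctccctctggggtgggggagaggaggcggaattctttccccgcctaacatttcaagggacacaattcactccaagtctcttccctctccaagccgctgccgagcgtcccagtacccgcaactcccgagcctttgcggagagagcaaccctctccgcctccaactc
The pair thus shared none of the 4 motifs. The named genes had 8 promoter entries, with none for Igf2bp1 and 2 for Hmga1. The windows of Hmga1 start at 27556324 and 27556354 on chromosome 17 and overlap for most of their length, so their matches are not separate sites. Of the 8 entries, 2 held the E-box (Igf2bp3 and Lin28b) and 0 the TATA box. The GC box was in 6 (Hmga1, Hmga2, Igf2bp2, Lin28a and Trim71). The octamer was in 2, both of Hmga1 and at the same place. The shares among 32851 promoters of this length were 7.15% for the E-box, 35.7% for the GC box, 13.6% for the TATA box and 1.74% for the octamer. A match describes the letters of this window and is no evidence of binding.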

How the data were processed

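Transcript levels were measured on 8 1-colour arrays (2 EB_PSC, 3 PSC and 3 ESC). The deposited values are log2 signals from RMA, per the submitters' processing notes, run by the authors in Bioconductor, per the labels. No version is given in the sources used here. Values ran from 2.56 to 14.9, with array medians of 5.39 to 5.47. RMA gives arrays nearly one distribution, so a general rise or fall of transcripts would not be seen, and dim differences are compressed. The number of arrays limits the precision.

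Of 45101 probe sets, 64 array controls were left out. The platform annotation gave 1 gene symbol to 34945 of the rest, several to 932 and none to 9160, and RefSeq (GRCm38.p6) updated 0 symbols. It gives no position of probes in transcripts. A gene in a list was read from its brightest probe set by mean over the arrays.

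Groups were compared with limma 3.58.1 in R 4.3.3, in 1 fit of all arrays with group as the only term (degrees of freedom 5 residual and 7.21 prior), two-sided and adjusted by Benjamini-Hochberg over 45037 probe sets. Offsets within an array were tested by exact permutation. The limma fit, and not the permutation test, was checked on simulated data. Alternatives were cyclic loess, quantile normalization again, leaving out dim probe sets, 1 value per gene (brightest or mean), leaving out _x_at and _s_at probe sets, fits of the compared groups alone, array weights, a trended and robust prior, a replicate block, and each array left out. Figures used Python 3.11.15, pandas 2.3.3 and Matplotlib 3.10.9.

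The members, lists and alternatives were chosen with earlier results of these data known. All member probe sets are named. Of the other lists up to 3 called genes in each direction and comparison are named by size, and for each member above the dim limit the 2 genes of highest r.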

Additional observations from a re-analysis of the deposited data

How the results depend on the processing

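In EB_PSC against PSC the rises of Hmga2 on its 3 brightest probe sets and of Igf2bp3 on 6, and the fall of Lin28a on 1437752_at, passed under every alternative run that tested the probe set. The same held in PSC against ESC for the low Lin28a on 1421749_at, Trim71, and Hmga2 on its 3 brightest probe sets. The run without _x_at and _s_at probe sets did not test Hmga2 1450780_s_at or Igf2bp3 1422610_s_at, 1422611_s_at and 1433732_x_at. Of 927 recomputed single values, 45 lost the call and 8 gained it with the sign kept. A further 14 changed sign, of which 12 were called at neither setting and 2 were called only at the alternative setting. With the probe sets of a gene averaged, Igf2bp1 in EB_PSC against PSC was -0.47 (adjusted p = 0.0098, against 0.07 for the brightest), and it and Trim71 (-0.35, adjusted p = 0.0182) were the 2 member genes called lower, while Lin28a lost its call (-0.32, adjusted p = 0.0757). In the same way Lin28a in PSC against ESC was -1.51 (adjusted p = 9.85e-06, against 0.12), since each then averages probe sets that differ. Without _x_at and _s_at probe sets, members higher numbered 6 in EB_PSC against PSC and 5 in EB_PSC against ESC, since 14 members were then tested. Leaving out each array gave 5 to 8 members higher in EB_PSC against ESC and 4395 to 7640 probe sets called in PSC against ESC. Array weights called 9971 there. In the let-7 processing list the mean of probe sets gave 4 higher and 11 lower in EB_PSC against PSC and 1 lower in PSC against ESC, and the filter on dim probe sets gave 5 higher and 1 lower in PSC against ESC. The cause was not tested. Cyclic loess made 57.1% of calls higher in EB_PSC against PSC (45.3% as deposited) and 56.5% in EB_PSC against ESC (45.7% as deposited).

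Replicate numbers are shared by the groups, and deviations of same-numbered arrays from their group means correlated at -0.26 to 0.20. With 2 or 3 arrays a group, the deviations within a group depend on one another. These values therefore cannot decide whether the numbers pair the samples. The main fit did not pair them. With the replicate block 10 members were higher and 4 lower in EB_PSC against PSC, 0 and 8 in PSC against ESC, and 8 and 6 in EB_PSC against ESC; the calls that ended were those of Igf2bp3 1422610_s_at in PSC against ESC (adjusted p = 0.0745) and 1422611_s_at in EB_PSC against ESC (0.109). The number of arrays, 2 or 3 a group, limits what could pass, and dim probe sets give bounds only.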

Other observations

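Among the other let-7 targets, regulators of the cell cycle and of growth factor signalling were looked at after their values were seen. Myc and Mycn, members of 1 transcription factor family, moved apart in EB_PSC against PSC, Myc by 1.72 ± 0.22 (adjusted p = 4.68e-05) and Mycn by -1.72 ± 0.20 (adjusted p = 2.46e-05). Of the cell cycle genes on the list, Ccnd1 (0.51 ± 0.13, adjusted p = 0.009), Ccnd2 (3.55 ± 0.15) and Cdk6 (0.81 ± 0.13, adjusted p = 0.000299) rose in the embryoid bodies, Cdc25a (-1.74 ± 0.20) and Cdc34 (-0.76 ± 0.17, adjusted p = 0.00404) fell, and E2f2 (-0.43 ± 0.17, adjusted p = 0.0779) did not pass, while 6 of 9 proliferation markers fell and none rose. The receptors Igf1r (0.73 ± 0.14, adjusted p = 0.00129) and Insr (1.32 ± 0.14, adjusted p = 1.33e-05) rose there too. Tgfbr1 (2.32 ± 0.15, adjusted p = 1.4e-07) and Nras (0.49 ± 0.13, adjusted p = 0.00993) rose as well. Irs2 (-0.20 ± 0.15, adjusted p = 0.341) and Rictor (0.41 ± 0.17, adjusted p = 0.0838) did not pass. In PSC against ESC Ccnd1 (-0.52 ± 0.12, adjusted p = 0.00999), Ccnd2 (-1.19 ± 0.14) and Cdk6 (-0.91 ± 0.12, adjusted p = 0.000241) were lower. Cdc25a (0.44 ± 0.18, adjusted p = 0.118), Cdc34 (-0.40 ± 0.16, adjusted p = 0.111) and E2f2 (-0.29 ± 0.16, adjusted p = 0.258) did not pass there. The receptors Igf1r (0.73 ± 0.13, adjusted p = 0.00197) and, narrowly, Insr (0.41 ± 0.13, adjusted p = 0.0489) were higher in PSC. Tgfbr1 (-1.01 ± 0.14, adjusted p = 0.000355) and Nras (-0.45 ± 0.12, adjusted p = 0.0186) were lower in PSC. Irs2 (-0.04 ± 0.13, adjusted p = 0.879) and Rictor (-0.34 ± 0.15, adjusted p = 0.172) did not pass.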
